A study of Mus musculus with 24 samples.

Results

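The genes described here are 8 transcripts of striated muscle whose products sit where force passes through the fibre and whose levels are known to move with stretch or load: Ankrd1, Ankrd2, Ankrd23, Csrp3, Xirp1, Xirp2, Fhl1 and Nrap. They were chosen by symbol from a table of read counts for 47643 Ensembl genes, and all 8 were present in it and passed the filter on low counts, among 10159 genes tested. The samples were plantaris, a fast hindlimb plantar flexor, from wild type C57BL/6 mice. One group of 11 samples came from mice kept in normal air, and the other of 13 samples from mice that had breathed tobacco smoke for 16 weeks. Age and sex of the animals, and the hour at which muscles were taken, are not given in the sources used here. The series title asks about chronic activity of the aryl hydrocarbon receptor, a receptor that binds components of smoke, and the comparison of smoke with air shows which muscle transcripts differ after exposure.

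In a muscle fibre, titin spans from the Z-disc to the M-band of the sarcomere and works as a spring. Ankrd1, Ankrd2 and Ankrd23 encode the 3 muscle ankyrin repeat proteins, which bind titin in the I-band and can also enter the nucleus. Csrp3 encodes muscle LIM protein, a Z-disc and cytoskeletal protein studied as part of the stretch sensing machinery. Fhl1 encodes a LIM-only protein that binds titin and other sarcomere proteins. Xirp1 and Xirp2 encode the Xin actin-binding repeat proteins, and Nrap encodes a nebulin-related anchoring protein; all 3 are found at the ends of myofibrils, where thin filaments are joined to the membrane. Loading of a muscle is known to act on such genes through the coactivators YAP and TAZ on TEAD factors, which bind an MCAT element, and through MRTF coactivators on serum response factor (SRF), which binds a CArG box.

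The bases just before the start sites show which of these elements lie close to the members. In the 250 bases upstream of each RefSeq start (GRCm38.p6), entries were found for 7 of the 8 genes, 10 starts in all. Xirp1 had no entry. The motifs searched on both strands were MCAT (CATTCC, or GGAATG on the other strand), the CArG box and the MEF2 element by their names, and the E-box (CANNTG, which reads as a motif on both strands and is bound by MyoD-family factors), and the TATA motif (TATAAA). Of 32851 such windows of all genes, 12.6% held an MCAT, 1.47% a CArG box, 2.92% a MEF2 element, 66.2% an E-box and 12.4% a TATA motif. Among the members, Ankrd1 held 2 MCAT motifs, the second Ankrd23 start held 1, the first Fhl1 start held 1 CArG box and Xirp2 held 1 MEF2 element. TATA was found once each in Ankrd2 and in the first Fhl1 start. The windows of Ankrd1 and of the first Ankrd23 start lie wholly in annotated GENCODE exon sequence. So do 87 of the 250 bases of the first Fhl1 window and 27 of those of Ankrd2. The motifs are printed 5′ to 3′ on the gene's strand as stretches of 30 bases, with the motif in capitals:
Ankrd1, chr19:36120037-36120066, minus strand: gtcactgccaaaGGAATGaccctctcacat
Ankrd1, chr19:36119950-36119979, minus strand: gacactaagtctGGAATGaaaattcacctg
Ankrd23, chr1:36535842-36535871, minus strand: cccagtgggccaCATTCCcagaacggtatt
Fhl1, chrX:56779571-56779600, plus strand: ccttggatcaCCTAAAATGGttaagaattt
Xirp2, chr2:67445918-67445947, plus strand: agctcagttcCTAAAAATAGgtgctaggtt

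Csrp3, the member with the smallest p-value below, had none of the MCAT, CArG or MEF2 letters in the window of either of its starts. Its first start is printed whole, because it lies upstream of the member on which most of the results turn (chr7:48848052-48848301, minus strand, with its 4 E-boxes in capitals):
Csrp3: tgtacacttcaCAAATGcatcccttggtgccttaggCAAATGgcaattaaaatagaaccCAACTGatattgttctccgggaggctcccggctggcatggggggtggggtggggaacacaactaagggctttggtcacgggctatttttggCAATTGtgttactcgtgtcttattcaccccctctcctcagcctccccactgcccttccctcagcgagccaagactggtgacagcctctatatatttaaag
A match is a description of these letters and not a binding site, and a window without one says nothing about the factor. No binding was measured in this study.

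Total counts per sample ranged from 2515697 to 4528845, and 3 counts, taken as the floor of detection, were worth 0.662 to 1.19 CPM (counts scaled to a common library total, after TMM scaling). Markers of the labelled tissue were abundant: in air, mean levels were 52109 CPM for skeletal actin Acta1, 27701 CPM for muscle creatine kinase Ckm and 39487 CPM for the fast myosin Myh4, and none of the 6 heart markers passed the filter. Of the 5 skeletal muscle markers 1 was called in edgeR, beside 1.92% of all tested genes. It was the oxygen-binding protein gene Mb, which fell from 7163 ± 863 CPM (SD, n = 11) to 5594 ± 532 CPM (SD, n = 13). The change was −0.36 on the log2 scale (SE 0.06, edgeR adjusted p = 0.00107), with all 13 smoke samples under the mean of air. The labels number the samples as replicates without saying that each came from a separate mouse, so p-values measure the spread between these samples. Libraries stood apart for the members in both groups. Air sample 11 was the lowest air sample for Ankrd1, Ankrd2, Xirp2, Fhl1 and Nrap. Smoke sample 11 was the highest smoke sample for Csrp3, Xirp1, Ankrd1, Ankrd2 and Nrap, and each of these results is given with and without it. Its score of circadian clock genes, 0.738, was the lowest in smoke, where the median was 1.92, and lay inside the air range of 0.306 to 1.62. The clock output gene Dbp was likewise at its lowest smoke value there, 22.6 CPM, inside the air range of 14.3 to 39.6 CPM. For some other transcripts smoke sample 11 lay with its group, as for the clock repressor Nfil3 (14.4 CPM, against 16.0 to 36.3 in air and at most 14.4 in smoke) and the respiratory chain subunit Cox7a1 (1434 CPM, against 1637 to 2015 in air and 1420 to 1608 in smoke).

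In smoke, Csrp3, Xirp1 and Fhl1 fell and no member rose. These 3 of 8 members passed edgeR's quasi-likelihood test at a Benjamini-Hochberg adjusted p under 0.05, where 1.19% of all tested genes were called lower and 0.728% higher. All 8 fitted changes were below 0, against 48.4% of the tested genes. The median log2 fold change of the members was −0.26, beside 0.01 over all tested genes. At an unadjusted p under 0.05 there were 5, all lower, beside 7.95% of tested genes lower and 15.5% in either direction at that level. The members were chosen with earlier results of these data known, so these contrasts with all tested genes are descriptions and not tests. The 3 genes that fell encode a Z-disc LIM protein, an actin-binding protein of the myofibril ends and a titin-binding LIM protein. The closest relative of Xirp1, Xirp2, and 1 of the 3 ankyrin repeat genes, Ankrd23, had changes near 0. The same 3 members were called whichever 1 of the 24 samples was left out, and 0 were called with a score of circadian clock genes or of Schwann cell markers as a covariate, as given below with their values. In bulk tissue, fewer cells of a type and less RNA per cell cannot be told apart.

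**Figure D1:**
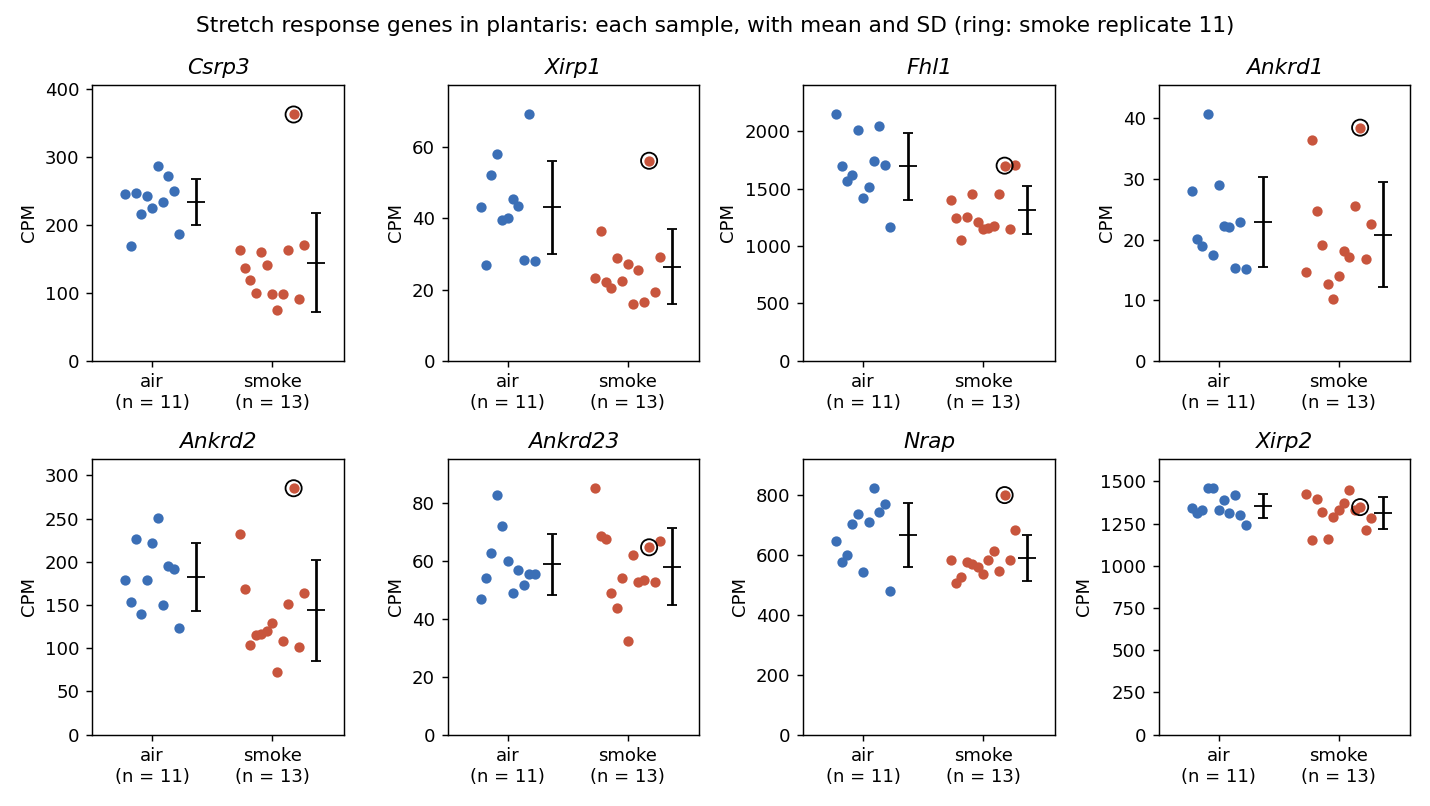
Level of each of the 8 members in every sample, in CPM on a linear axis from 0, with air and smoke side by side; each point is 1 sample and the bar beside it is the group mean with its SD. Smoke sample 11 is ringed: it reaches 362 CPM for Csrp3, above all 11 air samples, while the other 12 smoke samples lie between 75.2 and 170 CPM.

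**Figure D2:**
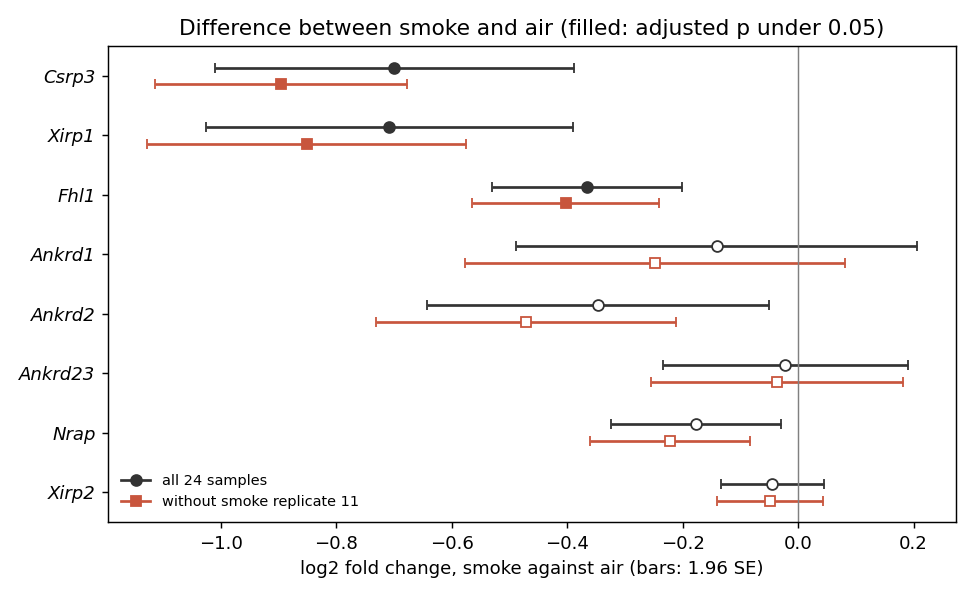
Log2 fold change, smoke against air, for each member with its 95% interval, from all samples (circles) and again without smoke sample 11 (squares), filled where the adjusted p was under 0.05. Csrp3 and Xirp1 lie farthest below 0, Fhl1 follows with a narrower interval, and Xirp2 and Ankrd23 lie near 0.

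Csrp3 (ENSMUSG00000030470, chr7:48830398-48848033, minus strand) was the clearest change. In air its level ran from 169 to 286 CPM with a median of 242.1, and in smoke from 75.2 to 362 CPM with a median of 136. Of the 13 smoke samples, 11 lay below the lowest air sample and 1, smoke sample 11, lay above the highest, so that the groups overlapped through few samples. The means were 233.8 ± 34.0 CPM (SD, n = 11) in air and 144 ± 72.7 CPM (SD, n = 13) in smoke. The log2 fold change was −0.70 (SE 0.16, adjusted p = 0.0142 in edgeR), and only smoke sample 11 of the 13 was not below the air mean. The coefficient of variation was 14.5% in air and 50.3% in smoke, or 26.2% without smoke sample 11. Without smoke sample 11 the smoke mean was 126 ± 33.1 CPM (SD, n = 12) and the log2 fold change −0.90 (SE 0.11, edgeR adjusted p = 4.9e-06).

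Xirp1 (ENSMUSG00000079243, chr9:120013755-120023598, minus strand) is the smaller of the Xin repeat genes and is known to be induced in damaged and overloaded muscle. Its level ran from 26.8 to 69.1 CPM in air, with a median of 43.0, and from 16.1 to 56.1 CPM in smoke, with a median of 23.3. Of the smoke samples, 8 lay below every air sample, and the highest was again smoke sample 11. Group means were 43.0 ± 13.1 CPM (SD, n = 11) and 26.4 ± 10.5 CPM (SD, n = 13). The log2 fold change was −0.71 (SE 0.16, adjusted p = 0.0142 in edgeR). It was lower than the air mean in 12 of 13 smoke samples. The estimate was −0.85 (SE 0.14, edgeR adjusted p = 0.00063) without smoke sample 11. The gene body overlaps that of Cx3cr1 on the same strand, with no shared exon.

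Xirp2 (ENSMUSG00000027022, chr2:67446002-67526614, plus strand), a MEF2 target in striated muscle, was the steadiest member. It ran from 1239 to 1459 CPM in air (median 1333) and from 1153 to 1449 CPM in smoke (median 1331). Of the smoke samples 3 lay below every air sample, 2 air samples lay above every smoke sample, and the others overlapped. Its coefficient of variation was 5.14% in air and 7.11% in smoke. Means were 1354 ± 69.6 (SD, n = 11) and 1313 ± 93.4 CPM (SD, n = 13), an estimated log2 change of −0.04 (SE 0.05, 95% interval −0.13 to 0.04, edgeR adjusted p = 0.704), and −0.06 (adjusted p = 0.543) without air sample 11. An antisense gene, Gm13601, shares exon sequence with it on the other strand, and the use of strand in counting is not stated. The log2 ratio of Xirp1 to Xirp2 within a library, which does not depend on library scaling, averaged −5.04 ± 0.43 over the 11 air samples and −5.72 ± 0.52 over the 13 smoke samples (SDs). The difference was −0.68 (SE 0.19), and 11 of 13 smoke samples lay below the air mean. This ratio and 3 more below were chosen after the values of both genes were seen, so they are given as descriptions with no test.

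Fhl1 (ENSMUSG00000023092, chrX:56731787-56793346, plus strand) had the smallest standard error of the 3 called members. Its level in air was 1166 to 2145 CPM with a median of 1694, and in smoke 1053 to 1702 CPM with a median of 1243. The groups overlapped more than for Csrp3: 4 smoke samples lay below every air sample and 5 air samples lay above every smoke sample. Means were 1694 ± 290 CPM (SD, n = 11) and 1315 ± 211 CPM (SD, n = 13). The log2 fold change was −0.37 (SE 0.08, adjusted p = 0.0142 in edgeR), and 11 of 13 smoke values were under the mean of air. Without smoke sample 11, which with 1700 CPM was second to smoke sample 13, it was −0.40 (edgeR adjusted p = 0.0061), and without air sample 11 −0.41 (adjusted p = 0.00203).

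Among the ankyrin repeat genes, Ankrd2 had the lowest estimate and Ankrd23 one near 0, and none passed the test. Ankrd2 (ENSMUSG00000025172, chr19:42036000-42045110, plus strand) is known as the stretch-responsive ankyrin repeat gene of slow fibres. Its level ran from 123 to 251.2 CPM in air (median 179) and from 72.9 to 285 CPM in smoke (median 120). Of the smoke samples, 7 lay below every air sample, and smoke sample 11 lay above all of them. Its means were 183 ± 39.7 CPM (SD, n = 11) and 144 ± 58.4 CPM (SD, n = 13), with an estimated log2 change of −0.35 (SE 0.15, adjusted p = 0.243 in edgeR) from all samples and −0.47 (adjusted p = 0.052) without smoke sample 11. Without air sample 11 it was −0.40 (adjusted p = 0.153). Of the 9 slow fibre markers 0 were called in edgeR, and their median log2 fold change was 0.02. The 3 with an unadjusted p under 0.05 all had lower estimates in smoke, of about the size of Ankrd2's: the slow myosin light chains Myl2 (−0.46, SE 0.14, edgeR adjusted p = 0.0784) and Myl3 (−0.29, SE 0.10, adjusted p = 0.15) and the slow calcium pump Atp2a2 (−0.35, SE 0.12, adjusted p = 0.145). Of the 9, 5 had estimates above 0, the largest Tnnc1 (0.59, SE 0.37, adjusted p = 0.477) and Tnni1 (0.43, SE 0.33, adjusted p = 0.568). With the mean of the 9 as a covariate the Ankrd2 estimate was −0.35 (edgeR adjusted p = 0.226). That mean had a correlation of only −0.06 with the group, so adding it could move the estimate little, whatever the part of slow fibres.

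Ankrd1 (ENSMUSG00000024803, chr19:36111961-36120099, minus strand), known as a TEAD target and a marker of strained muscle, was low in all samples. Its levels were 15.1 to 40.6 CPM in air (median 22.1) and 10.2 to 38.5 CPM in smoke (median 18.1), from 31 to 151 counts a sample, and the groups overlapped widely. The means were 22.9 ± 7.42 CPM (SD, n = 11) and 20.8 ± 8.66 CPM (SD, n = 13). The log2 fold change was −0.14 (SE 0.18, 95% interval −0.49 to 0.21, edgeR adjusted p = 0.766), −0.25 (adjusted p = 0.532) without smoke sample 11 and −0.19 (adjusted p = 0.657) without air sample 11. Without air sample 4, the highest air sample, it was −0.02 (edgeR adjusted p = 0.969).

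Ankrd23 (ENSMUSG00000067653, chr1:36530188-36536883, minus strand) overlaps exons of Gm42417 on the same strand, so its count is uncertain. It ran from 46.9 to 82.6 CPM in air (median 55.5) and from 32.4 to 85.0 CPM in smoke (median 54.1), with both the lowest and the highest value in smoke. Means were 58.7 ± 10.5 CPM (SD, n = 11) and 57.9 ± 13.2 CPM (SD, n = 13), and the log2 fold change was −0.02 (SE 0.11, 95% interval −0.23 to 0.19, edgeR adjusted p = 0.954). The sign of that estimate was positive in 4 of the 24 fits that left out a sample. The log2 ratio of Ankrd2 to Ankrd23 differed between smoke and air by −0.37 (SE 0.19). The ratios of Ankrd1 to Ankrd2 and of Ankrd1 to Ankrd23 differed by 0.22 (SE 0.23) and −0.15 (SE 0.19).

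Nrap (ENSMUSG00000049134, chr19:56320035-56390037, minus strand) anchors thin filaments at the myotendinous junction and acts in myofibril assembly. Its level was 481 to 822 CPM in air (median 704) and 506 to 799 CPM in smoke (median 578). No smoke sample lay below the lowest air sample, air sample 11, and the groups overlapped. Means were 666 ± 106 CPM (SD, n = 11) and 590 ± 76.7 CPM (SD, n = 13), with an estimated log2 change of −0.18 (SE 0.08, adjusted p = 0.228 in edgeR) from all samples and −0.22 without smoke sample 11 (adjusted p = 0.0912) or without air sample 11 (adjusted p = 0.0749). It shares exon sequence with Habp2 and Gm17197 on the other strand. The 3 markers of the myotendinous junction gave 0 called genes in edgeR, 1 at an unadjusted p under 0.05 and a median log2 fold change of −0.21 over the 2 tested; the junction collagen Col22a1 had means of 24.2 ± 7.14 CPM in air and 17.6 ± 4.42 CPM in smoke (SDs over 11 and 13 samples) (log2 fold change −0.46, SE 0.14, edgeR adjusted p = 0.0644).

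Other measures moved between the groups together with the 3 called members. The clock score, the mean log2 CPM of output and period genes minus that of their opposing factors over 11 tested genes, had medians of 0.899 in air and 1.92 in smoke and a correlation of 0.73 with the group. When that score was added to the model, a choice made once the data had been seen, no member was called and none had an unadjusted p under 0.05 in edgeR: log2 fold changes were −0.35 for Csrp3 (SE 0.19, adjusted p = 0.401), −0.32 for Xirp1 (SE 0.21, adjusted p = 0.492) and −0.22 for Fhl1 (SE 0.12, adjusted p = 0.376). In edgeR 0.728% of all tested genes were called higher, and so were 3 of 5 markers of Schwann cells, the glia of peripheral nerve. Among them, the peripheral myelin protein gene Pmp22 went from 33.2 ± 6.21 CPM (SD, n = 11) to 61.5 ± 42.6 CPM (SD, n = 13), or 0.88 on the log2 scale (SE 0.24, adjusted p = 0.0481 in edgeR), and Prx, which encodes periaxin, had a log2 difference of 1.48 (SE 0.39, adjusted p = 0.0362 in edgeR). The summed level of the 5 was 118 to 274 CPM in air and 176 to 852 CPM in smoke. With the Schwann cell score as a covariate no member was called either, but estimates stayed close, at −0.64 for Csrp3 (SE 0.196, edgeR adjusted p = 0.125), −0.73 for Xirp1 (SE 0.198, adjusted p = 0.0789) and −0.35 for Fhl1 (SE 0.106, adjusted p = 0.121); 3 members had an unadjusted p under 0.05. Blood markers were lower, 3 of 5 called, beside 1.19% of all tested genes called lower. Their sums were 486 to 1444 CPM in air and 369 to 883 CPM in smoke, the last being smoke sample 11. Within groups, Csrp3, Xirp1 and Fhl1 were set against the clock and Schwann cell scores in 12 relations, and none passed by r or by rho (permutation adjusted p of r 0.66 to 0.976). In smoke, Csrp3 and the clock score gave r = −0.51 (permutation p = 0.0765; Spearman rho −0.10, permutation p = 0.748), and r = −0.08 once the 2 samples with the most extreme clock score were left out. In air, Xirp1 and the Schwann cell score gave r = 0.34 (permutation p = 0.317; Spearman rho 0.62, permutation p = 0.0479, adjusted p = 0.575), and r = 0.79 once the 2 most extreme samples were left out. The part of these measures in the fall of the 3 members was not tested beyond these fits.

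Within a group, samples with more of one member often had more of another. Of 28 pairs in each group, 23 were positive in air with a median Pearson r of 0.29, and 24 in smoke with a median of 0.41. The pairs share 8 genes and are not independent, and the same share over other genes was not computed. Of the 56 tests, 2 passed, both in smoke and both with Csrp3. Ankrd2 and Csrp3 gave r = 0.86 (permutation p = 0.00012, adjusted p = 0.00448; Spearman rho 0.82, permutation p = 0.00096, adjusted p = 0.0269), and r = 0.77 once smoke samples 1 and 11, the 2 with the most extreme Ankrd2, were left out. Csrp3 and Fhl1 gave r = 0.82 (permutation p = 0.00016, adjusted p = 0.00448; Spearman rho 0.84, permutation adjusted p = 0.0269), and r = 0.78 once samples 8 and 11, the 2 with the most extreme Csrp3, were left out. In air, Ankrd2 and Csrp3 gave r = 0.72 (permutation adjusted p = 0.0878; Spearman rho 0.75, adjusted p = 0.141), and r = 0.51 without air samples 7 and 11. Csrp3 and Xirp1 in smoke gave r = 0.72 (permutation adjusted p = 0.0844; Spearman rho 0.54, adjusted p = 0.421) and r = 0.16 without samples 8 and 11, so that this relation rested on those samples. Without the replicate numbered 11 in each group, the median r was 0.07 in air and 0.17 in smoke. Whether a relation differed between air and smoke was not tested.

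**Figure D3:**
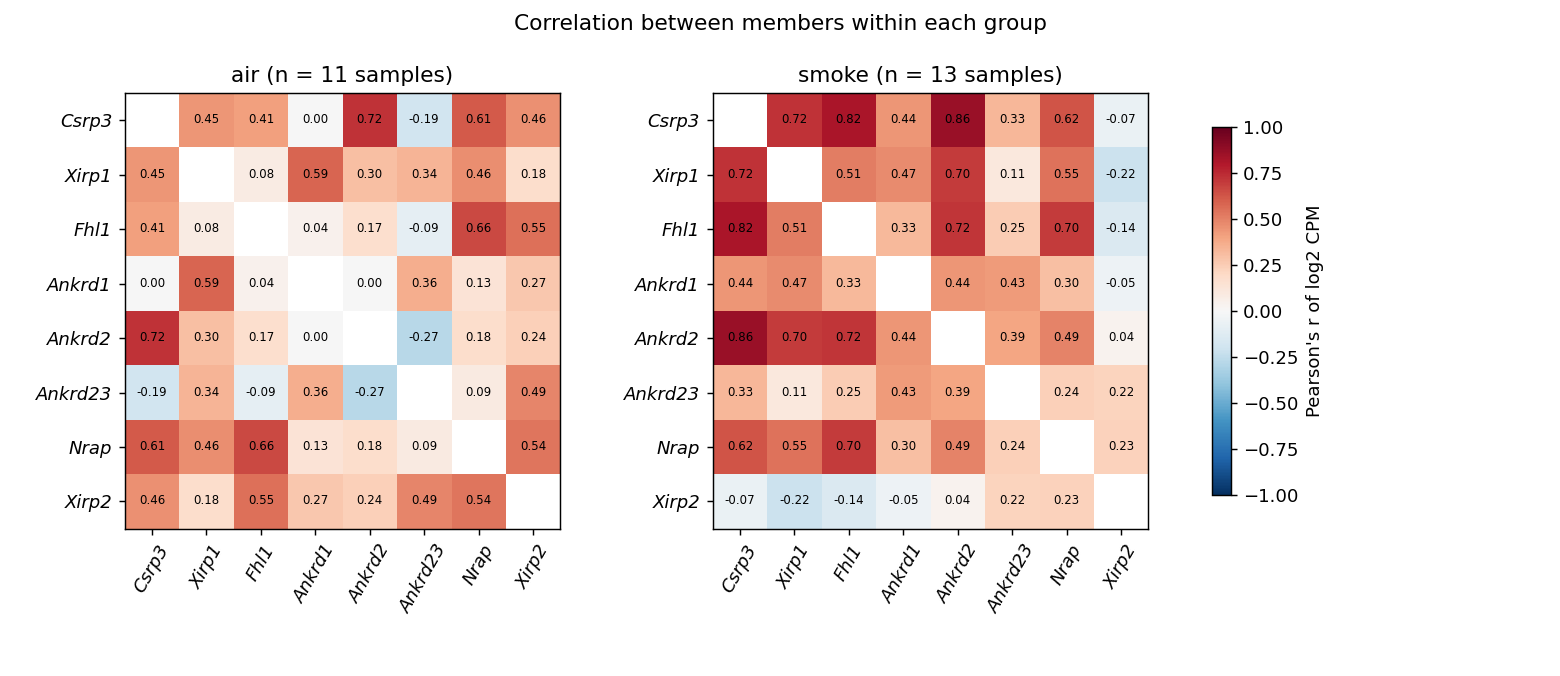
Pearson r of log2 CPM between each pair of members, in the 11 air samples and in the 13 smoke samples, as a grid coloured from −1 to 1 with r printed in each cell. The 2 pairs that passed after adjustment over 56 tests, Ankrd2 with Csrp3 (0.86) and Csrp3 with Fhl1 (0.82), are the darkest cells of the smoke grid.

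**Figure D4:**
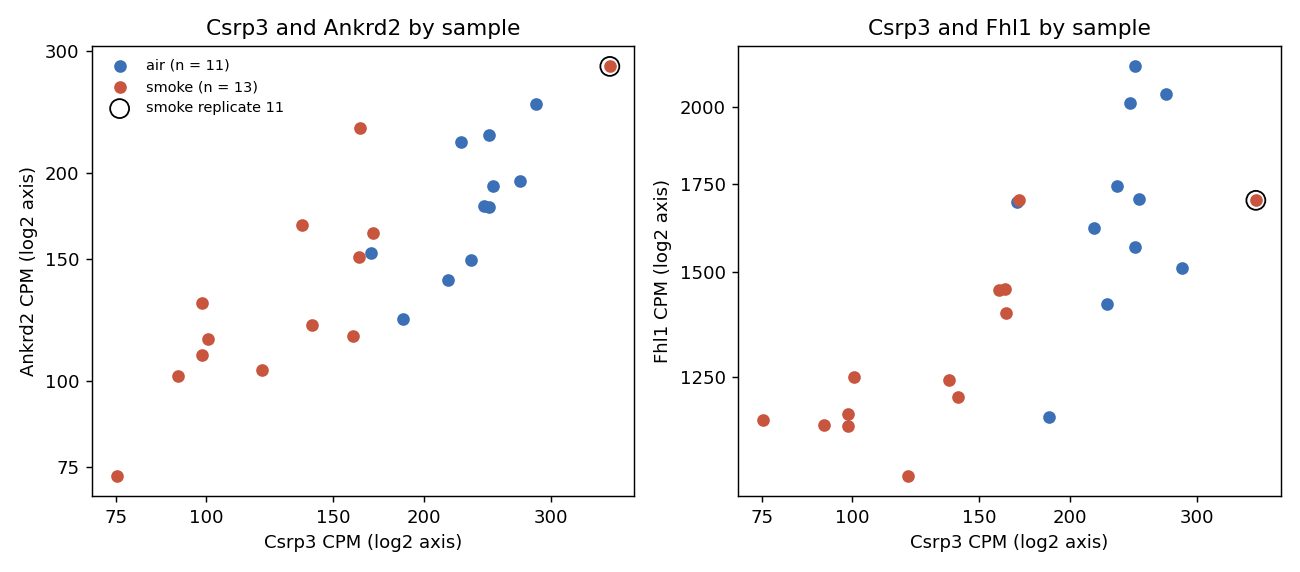
Ankrd2 and Fhl1 (vertical axes) against Csrp3 (horizontal axis), in CPM on log2 axes, 1 point per sample, coloured by group. Smoke sample 11, ringed, has the highest Csrp3 of all 24 samples, and without it r in smoke was still 0.77 with Ankrd2 and 0.75 with Fhl1.

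The genes whose levels were most like a member's over the 24 samples, after each group's mean was taken out, differed from member to member. Csrp3 went with Lmcd1, a LIM domain cofactor (r = 0.81, and 0.57 without smoke sample 11), Nr2f2 (r = 0.74) and the Z-disc cross-linker Actn2 (r = 0.72). Fhl1 also had Actn2 first (r = 0.77), then the scaffold protein gene Homer2 (r = 0.74) and the fast myosin Myh1 (r = 0.72). Ankrd2 had the small heat shock protein gene Hspb7 first (r = 0.81), then Lmcd1 (r = 0.71, and 0.55 without smoke sample 11) and Adprhl1 (r = 0.70). Xirp1 had the non-muscle actinin Actn1 (r = 0.75), Atp8b2 and Synj2 (both r = 0.66). Nrap had Synpo2, an actin-binding Z-disc protein gene (r = 0.82), Lrrc2 (r = 0.81) and Idh3a (r = 0.80). Ankrd23 went with Akap9 (r = 0.83), Narf (r = 0.82) and nebulin, Neb (r = 0.81), and Xirp2 with Wapl (r = 0.80), Rab10 (r = 0.78) and Ube2k (r = 0.77). Ankrd1 had Zfyve27 (r = 0.73), Ehd4 (r = 0.69) and Gm42656 (r = 0.67). These are descriptions over samples that share library preparation, with no p. Each r was picked as one of the highest over all tested genes outside the members, so high values come in part from that search. Of these genes Hspb7 was itself lower in smoke, at 158 ± 25.6 CPM (SD, n = 11) and 107 ± 29.7 CPM (SD, n = 13), or −0.57 on the log2 scale (SE 0.11, adjusted p = 0.00477 in edgeR), and so was Actn2, below.

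In the lists of related genes, the largest called change was that of Abra, which encodes an actin-binding protein that promotes entry of MRTF into the nucleus. Abra ran from 38.2 to 182 CPM in air and from 34.2 to 96.0 CPM in smoke, the last in smoke sample 11, so that the groups overlapped. Its means were 111 ± 46.6 CPM (SD, n = 11) and 55.8 ± 19.5 CPM (SD, n = 13). The log2 fold change was −0.99 (SE 0.19, edgeR adjusted p = 0.00352), and all 13 smoke samples were below the air mean. Mrtfa, the coactivator itself, rose from 29.4 ± 4.63 CPM (SD, n = 11) to 36.7 ± 5.53 CPM (SD, n = 13), or 0.33 on the log2 scale (SE 0.09, adjusted p = 0.0494 in edgeR), but the call was lost in 19 of 24 fits that left out a sample, and the gene shares exon sequence with Sgsm3 on the other strand. Srf itself was 186 ± 31.7 and 180 ± 11.9 CPM (SD; log2 fold change −0.04, SE 0.07, edgeR adjusted p = 0.825). Of the 13 genes listed for the SRF and MRTF axis, 10 were tested, and Abra and Mrtfa were the only ones called, in opposite directions. Over all tested genes 1.92% were called in either direction. At an unadjusted p under 0.05 there were 3 of the 10, beside 15.5% of all tested genes. The list's median was −0.04.

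The TEAD list of 15 cofactors and targets had 12 tested genes and 0 called in edgeR, and a median log2 fold change of −0.06. At an unadjusted p under 0.05 there were 3 of the 12, beside 15.5% of all tested genes, and they went both ways: the factor Tead4 (−0.40, SE 0.15, edgeR adjusted p = 0.159) and the cofactors Vgll2 (−0.21, SE 0.10, adjusted p = 0.268) and Vgll4 (0.39, SE 0.14, adjusted p = 0.134). The coactivator Yap1 had means of 37.6 ± 8.12 CPM with air and 43.5 ± 7.09 CPM with smoke (edgeR adjusted p = 0.332). Of 15 titin and Z-disc partners, 13 were tested and 2 fell: Actn2, which cross-links thin filaments at the Z-disc, from 435 ± 28.8 to 373 ± 47.8 CPM (log2 fold change −0.22, SE 0.06, edgeR adjusted p = 0.0407), and Bag3, a co-chaperone that clears damaged Z-disc proteins under tension, from 321 ± 23.7 to 278 ± 24.2 CPM (−0.21, SE 0.05, edgeR adjusted p = 0.0273). Titin itself, Ttn, was 5118 ± 719 and 5208 ± 727 CPM (edgeR adjusted p = 0.919). All 14 genes listed for costameres and integrin sensing were tested and 1 fell, Itgb1bp2, whose product melusin binds the integrin tail, from 251.9 ± 27.0 to 216 ± 14.9 CPM (−0.22, SE 0.06, edgeR adjusted p = 0.0244, below the air mean in 13 of 13). Of 8 paralogs of the members, 5 were tested and 1 fell, the nebulin-family gene Lasp1, from 42.2 ± 4.54 to 35.1 ± 4.27 CPM (−0.27, SE 0.07, edgeR adjusted p = 0.0481). All these ± values are SDs over 11 air and 13 smoke samples. Over all tested genes, 1.19% were called lower. At an unadjusted p under 0.05 there were 4 of 13 titin and Z-disc partners, 2 of 14 costamere genes and 1 of 5 paralogs. That share was 15.5% over all tested genes. Leaving out single samples ended the call for Actn2 in 16 of 24 fits, for Lasp1 in 17 and for Bag3 in 2 (air sample 3 or smoke sample 6), and in none for Abra, Itgb1bp2 or Hspb7. Mrtfa, Actn2, Bag3 and Lasp1 also lost their calls with no filter on low counts. With the Schwann cell score as a covariate Mrtfa, Actn2, Bag3 and Itgb1bp2 were not called, and with the slow fibre score Lasp1 was not. With the clock score as a covariate only Abra of the genes named here from these lists kept its call, and Hspb7 lost its own.

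**Figure D5:**
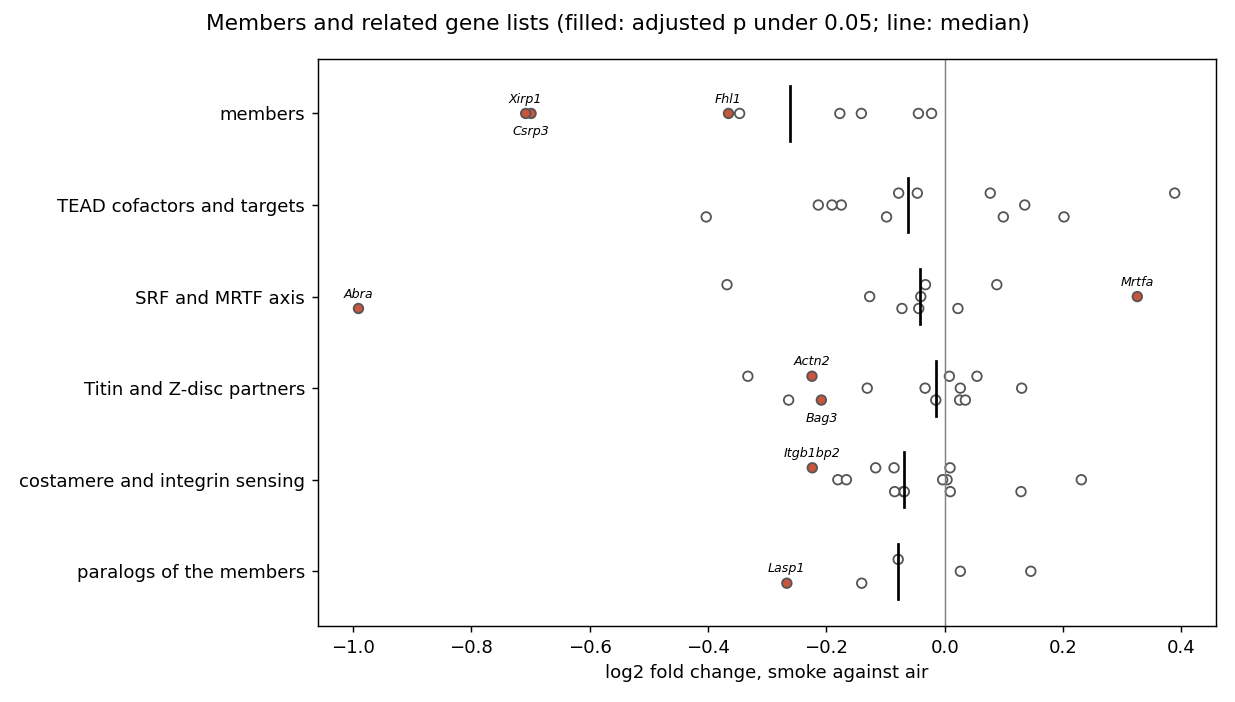
Log2 fold change, smoke against air, of every tested gene in the member list and the 5 related lists, 1 point per gene, with the list median as a line and called genes filled and named. The members' median is −0.26, and the medians of the related lists lie between −0.08 and −0.02. The marker lists, not drawn here, had medians from −0.73 (blood) to 0.88 (Schwann cell), with tendon at −0.26.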

How the data were processed

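Plantaris RNA was profiled in 11 air and 13 smoke samples with Lexogen QuantSeq 3′ FWD libraries on an Illumina HiSeq instrument, per the labels' protocols. This kit gives about 1 read per transcript near its 3′ end, so values were not divided by length. The authors deposited raw read counts per Ensembl gene. The submitters' processing notes name STAR, DESeq2 and mm9, without versions or roles; the counting tool, the annotation and the use of strand are not given in the sources used here. The table holds no coordinates, so symbols and positions were taken from GENCODE M21 (GRCm38), which named 47224 of the 47643 IDs (99.1%), and promoter sequence from RefSeq (GRCm38.p6). Per the file headers, all libraries shared a lane, and smoke precedes air in the sample sheet, so that sheet position and group cannot be told apart.

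Counts were tested with edgeR 4.0.16 in R 4.3.3 (filterByExpr, minimum count 10, TMM scaling, quasi-likelihood F-test, Benjamini-Hochberg over 10159 genes, called at an adjusted p under 0.05), all samples, no covariates. Totals were 2515697 to 4528845 counts, and the floor covers counting error only, since reads without molecular identifiers are not independent molecules. Correlations and scores used log2 CPM computed here with a prior count of 2, with two-sided permutation tests of 100000 resamples (SciPy 1.17.1). On simulated counts with 200 changed genes of 10159, 173 were called, 167 of them changed, recovering 92.9% of 2-fold and 71.3% of 1.5-fold changes. No pair of libraries within a group, of 133, agreed within sampling noise (chi-square per gene 2.52 to 18.6).

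The members and lists were chosen with earlier results of these data known. Named in full are every member, every called gene of the related lists, and for each member the 3 genes with the highest r. Srf, Yap1, Tead4, Vgll2, Vgll4, Mb, Ttn, Col22a1, Pmp22, Prx, Nfil3, Dbp, Cox7a1, Myl2, Myl3, Atp2a2, Tnnc1 and Tnni1, the 4 ratios and the clock and Schwann cell covariates were chosen after values were seen. 1 marker gene is not reported here. Alternatives were other tests (limma 3.58.1 voom with sample weights, DESeq2 1.42.0), other scaling (upper-quartile, RLE), no filter, a replicate block, a slow fibre covariate and leaving out each sample.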

Additional observations from a re-analysis of the deposited data

How the results depend on the processing

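Csrp3, Xirp1 and Fhl1 were called under RLE and upper-quartile scaling, DESeq2, limma voom with sample weights, no filter, the slow fibre covariate and all 24 fits without 1 sample. Of 72 member fold changes under the 9 alternatives other than leaving out 1 sample, 64 kept direction and side of the threshold, 7 kept direction only and 1 reversed. These exceptions came from 3 of those settings, and the cause was not tested. With the replicate block (22 samples) Xirp1 was −0.70 (adjusted p = 0.0671), and Mrtfa, Actn2, Bag3 and Lasp1 were not called. With the clock covariate 0 members were called, at −0.35 (Csrp3), −0.32 (Xirp1) and −0.22 (Fhl1), none with an unadjusted p under 0.05. With the Schwann cell covariate 0 members were called, at −0.64 (Csrp3), −0.73 (Xirp1) and −0.35 (Fhl1), and Xirp2 turned to 0.026. Both covariates were added after the data were seen. Of all genes, 195 were called: 323 by DESeq2, 69 with the clock and 68 with the Schwann cell covariate, and 138 with the block. Replicate numbers do not pair samples: the 11 same-numbered pairs had a mean r of −0.0059 (−0.275 to 0.14), and 2 air samples correlated best with their own number.

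Without 1 sample each, edgeR called 141 (without air 3) to 254 genes (without air 11). Log2 fold changes ran from −0.90 to −0.64 (Csrp3), −0.85 to −0.62 (Xirp1), −0.41 to −0.33 (Fhl1), −0.47 to −0.29 (Ankrd2), −0.22 to −0.14 (Nrap), −0.25 to −0.02 (Ankrd1), −0.06 to −0.03 (Xirp2) and −0.080 to 0.036 (Ankrd23). Ankrd23 was positive without air 4 (0.036), air 5 (0.011), smoke 5 (0.0044) or smoke 7 (0.032). In air, r of Ankrd1 with Ankrd2 turned to 0.0029 with RLE and 0.0015 with a prior count of 0.5, and with Csrp3 to 0.0014 with RLE; all 3 lay at 0. Ankrd1 had the fewest counts of the members, at 31 to 151 a sample.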

Other observations

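Members also differed in how much they spread between samples. In air the coefficient of variation of CPM was 5.14% for Xirp2, 14.5% for Csrp3 and 32.4% for Ankrd1, and in smoke 7.11%, 50.3% and 41.6%. Without smoke sample 11 the smoke values were 7.40%, 26.2% and 37.0%, so that Csrp3 lay below Ankrd1. Smoke sample 8 was the lowest smoke sample for Ankrd2, Csrp3 and Xirp1.

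For the genes called without a given sample, the side of that sample was counted. Without smoke sample 11, 215 genes were called, and 46.5% of them had a level in it nearer the air mean than the smoke mean. Smoke sample 13 gave 50.8%, and the other 11 smoke samples gave 13.9% to 34.8%. Air samples were mixed as well, with 54.5% (air sample 11) to 87.2% (air sample 3) of the genes nearer the air mean. Smoke sample 13 was also the highest smoke sample for Fhl1, at 1702 CPM.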
